A study of Mus musculus with 16 samples.

Results

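The transcripts described here are 40 interferon-stimulated and antigen-processing genes of the mouse, measured in cerebellum and hippocampus of mice overexpressing mutant Twinkle and of wild-type mice. A gene was taken as measured where an array probe set named it as its only gene in the platform annotation. By that rule 38 of the 40 genes were measured, by 64 probe sets, among 18168 genes in all. Ifi44 had no such probe set, and the only probe set for Isg15 also names Gm9706, so both were left out. Twinkle is the helicase of mitochondrial DNA, and overexpression of its mutant form gives a mouse model of progressive external ophthalmoplegia, a mitochondrial disease of muscle and brain. There were 16 arrays in 4 groups of 4, mutant and wild type in each region, with replicates labelled as biological. In both regions replicates 1 to 4 were aged 24, 24, 21 and 21 months in the mutants and 26, 24, 21 and 23 months in the wild type, so that replicates 1 and 2 form an older class of 24 to 26 months and replicates 3 and 4 a younger class of 21 to 23 months. The labels used here do not name the promoter of the transgene, the strain, the sex or the animal each region came from. One label of the hippocampus samples reads cerebellum, but 3 others (title, source and tissue) read hippocampus and were followed.

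Cells answer viral or misplaced nucleic acid with a shared set of transcripts. Sensors of RNA and DNA in the cytosol switch on type I interferons, and the interferons act through their receptor on factors that include Stat2 and Irf9, which bind the interferon-stimulated response element (ISRE) in the promoters of these genes. Mitochondrial DNA that leaks into the cytosol is one known trigger, through the sensor cGAS and its partner Sting1. Interferon gamma acts at another element, the gamma-activated site (GAS), and raises guanylate-binding proteins and the machinery that loads peptides on class I molecules. In the brain, microglia, astrocytes and endothelial cells all express genes of this set.

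The measured genes fall into 6 roles. Irf7, the factor that amplifies interferon production, Irf9, Stat2, Nmi and Ifi35 are transcription factors and their partners. Ifih1 (a sensor of long double-stranded RNA, also called MDA5), its regulator Dhx58, Ddx60, Eif2ak2, Oasl2 and Zbp1 sense nucleic acid or act on it. The antiviral effectors are Ifit1, Ifit2, Ifit3, the dynamin-like GTPases Mx1 and Mx2, Rsad2 (viperin, which makes a chain-ending nucleotide), Bst2 (tetherin, which holds virus particles at the membrane), Ifitm1, Ifitm3, Ifi27, Xaf1, Trim30a, Lgals3bp and Rtp4. Usp18, which removes Isg15 from proteins and dampens the receptor, Herc6, which attaches Isg15 in the mouse, Dtx3l, Parp9 and Parp14 modify proteins. Gbp2, Gbp3 and Gbp7 are guanylate-binding proteins, and Psmb8, Psmb9, Tap1, Tap2 and B2m prepare class I molecules and their peptides.

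The promoters of 5 genes are printed here, 4 with and 1 without the element described above, because the values of these genes are described below. Windows of 300 bases, 250 before and 50 after the annotated start, were taken from RefSeq (build GRCm38.p6). They are written 5′ to 3′ on the strand of the gene in lower case, with matches to the ISRE core, which is GAAA, any 2 bases and GAAA again, on either strand, in capitals. Ifit1 lies on the plus strand (chr19:34640639-34640938), Ifitm3 on the minus strand (chr7:141010695-141010994), B2m on the plus strand (chr2:122147437-122147736), Gbp3 on the plus strand (chr3:142559794-142560093) and Nmi on the minus strand (chr2:51973159-51973458).
Ifit1: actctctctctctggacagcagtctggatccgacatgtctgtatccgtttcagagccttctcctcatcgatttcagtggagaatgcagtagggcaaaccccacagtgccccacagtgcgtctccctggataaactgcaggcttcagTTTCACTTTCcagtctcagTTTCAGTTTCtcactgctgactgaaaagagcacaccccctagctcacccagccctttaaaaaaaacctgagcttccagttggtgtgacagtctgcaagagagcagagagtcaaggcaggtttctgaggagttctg
Ifitm3: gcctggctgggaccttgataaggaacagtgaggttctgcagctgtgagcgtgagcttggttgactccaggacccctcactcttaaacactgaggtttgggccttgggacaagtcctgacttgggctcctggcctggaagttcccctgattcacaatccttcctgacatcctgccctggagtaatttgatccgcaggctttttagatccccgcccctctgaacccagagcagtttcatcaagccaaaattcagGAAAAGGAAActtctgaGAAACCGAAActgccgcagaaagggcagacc
B2m: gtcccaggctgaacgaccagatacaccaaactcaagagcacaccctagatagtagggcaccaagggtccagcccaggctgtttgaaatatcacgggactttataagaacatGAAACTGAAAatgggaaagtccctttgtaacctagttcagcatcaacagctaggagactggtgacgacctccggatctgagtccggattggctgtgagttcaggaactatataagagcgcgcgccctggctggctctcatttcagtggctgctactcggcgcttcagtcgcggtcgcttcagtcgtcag
Gbp3: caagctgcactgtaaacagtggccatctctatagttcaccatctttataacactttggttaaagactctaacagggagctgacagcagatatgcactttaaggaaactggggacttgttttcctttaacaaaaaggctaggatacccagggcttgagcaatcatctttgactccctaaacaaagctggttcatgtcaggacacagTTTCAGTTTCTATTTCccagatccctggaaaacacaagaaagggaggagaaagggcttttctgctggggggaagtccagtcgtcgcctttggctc
Nmi: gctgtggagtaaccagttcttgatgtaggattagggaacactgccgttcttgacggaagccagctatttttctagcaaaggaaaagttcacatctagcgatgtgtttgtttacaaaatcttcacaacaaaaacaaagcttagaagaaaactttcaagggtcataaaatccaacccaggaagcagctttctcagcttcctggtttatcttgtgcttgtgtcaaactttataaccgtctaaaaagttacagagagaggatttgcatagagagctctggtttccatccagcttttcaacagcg

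The windows of Ifit1, Ifitm3 and Gbp3 held 2 matches each, that of B2m held 1, and that of Nmi held none. In Ifit1 the matches began at positions -104 and -85 from the start and in Gbp3 at -45 and -39, where they overlap, whereas in Ifitm3 they began at 3 and 20, inside the transcript. Of the 28 measured genes with a window in the table, 14 held a match, against 3.99% of all 27025 genes with a window. Besides the 4 above these were Ifih1, Gbp7, Gbp2, Trim30a, Ddx60, Bst2, Stat2, Rsad2, Eif2ak2 and Ifit3. The second pattern, TTCNNNGAA, which reads the same on both strands and stands for the GAS element, was found for 7 of the 28 genes (Gbp7, Ifitm3, Bst2, Ifi35, Psmb8, Eif2ak2 and Ifit2), against 9.55% of all genes. The windows of Tap1 and Psmb9, which lie on opposite strands of chromosome 17, share 275 of their 300 bases. These matches describe letters only. Dhx58, Ifi27, Mx1, Mx2, Parp14, Parp9, Rtp4, Tap2, Usp18 and Zbp1 were not searched.

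Each deposited value is a log value relative to the typical array of its region, so that it shows which arrays are high or low for a gene but carries no expression level. The log base is not stated; it is read here as 2. Values of a gene with several probe sets are their mean. Several arrays stood apart in ways that bear on these genes. In hippocampus, wild-type replicate 1 had mean marker values of 2.23 for cerebellar granule neurons and 1.51 for Purkinje cells (over 11 and 9 genes) and -0.58 for hippocampal neurons (10 genes), values that go against its label in part. Its choroid plexus markers (13 genes) were also raised, at 0.70. Mutant replicate 1 in hippocampus had 0.78 for granule neurons and 1.05 for meninges, and mutant replicate 4 had 1.78 for choroid plexus; these 3 are called the marker-raised arrays below. In cerebellum, choroid plexus markers were at 0.59 in wild-type replicate 1 and -1.15 in mutant replicate 4, and poly-A spike-in controls were at 0.55 and 0.59 in mutant replicates 2 and 4. In whole tissue, fewer cells of a type and less RNA per cell cannot be told apart.

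The set had its highest medians on the same 3 genotype and replicate numbers in both regions, called samples here although the labels do not name animals. The median over the 38 genes was 0.14 on the cerebellum array of wild-type replicate 1, the 26-month sample, and 0.028 on its hippocampus counterpart. For mutant replicate 2, at 24 months, it was 0.13 in cerebellum and 0.085 in hippocampus, with 32 of 38 genes above 0 in each. For mutant replicate 1, also at 24 months, it was 0.017 and 0.032. These 3 were the highest of 8 in each region, while the fourth older sample, wild-type replicate 2 at 24 months, had -0.088 and -0.014 and lay among the lower ones. The younger samples ranged from -0.093 (wild-type replicate 3) to 0.014 (mutant replicate 4) in cerebellum and from -0.053 (wild-type replicate 4) to -0.0097 (mutant replicate 4) in hippocampus. The pooled SD of this median between arrays of a group was 0.071. In cerebellum mutant replicate 1 (0.017) lay only just above mutant replicate 4 (0.014), a step much smaller than that SD. In hippocampus the step from wild-type replicate 1 (0.028) to mutant replicate 4 (-0.0097) was also smaller than that SD. There wild-type replicate 1, mutant replicate 1 and mutant replicate 4 were the marker-raised arrays.

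**Figure D1:**
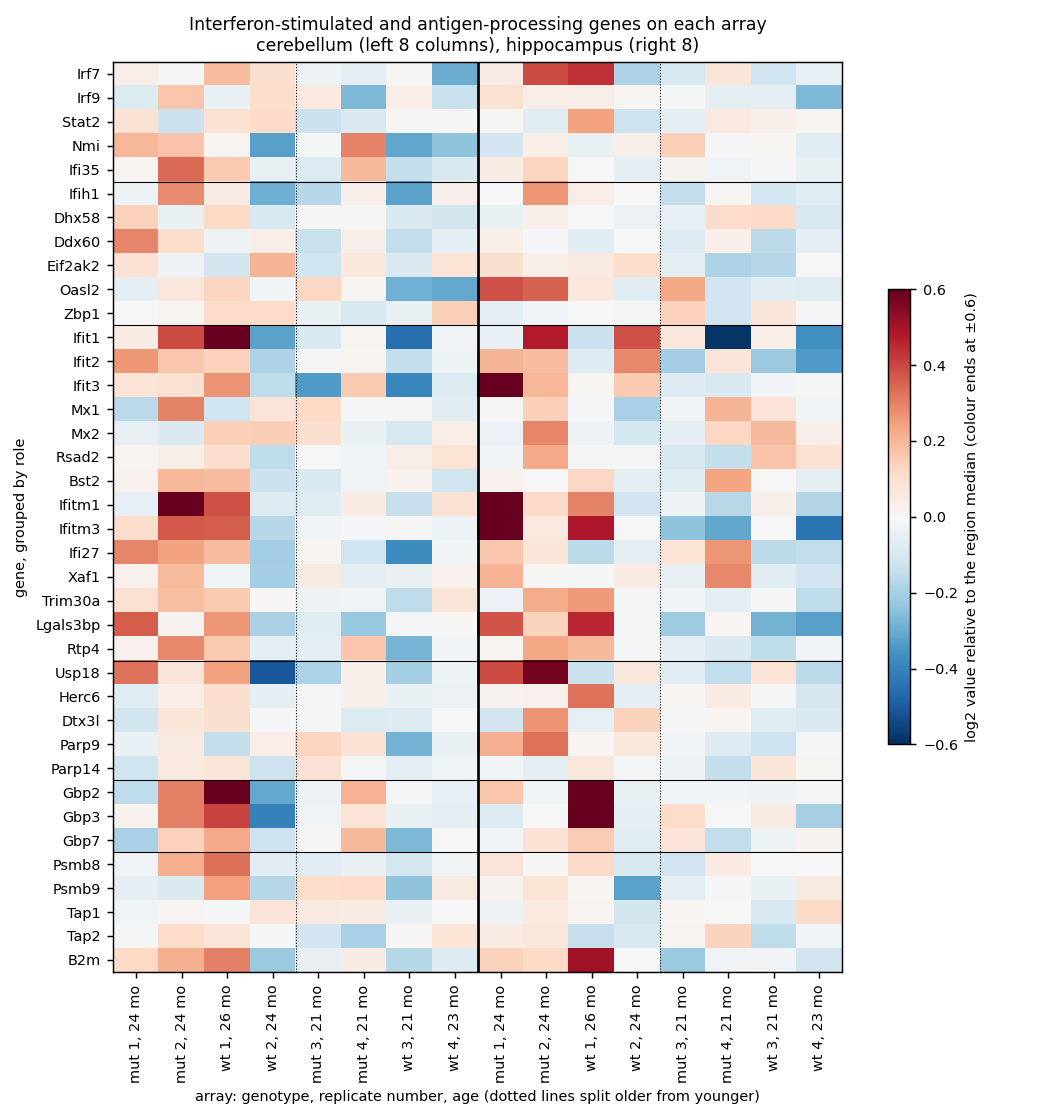
Each row is 1 of the 38 measured genes, in blocks by role, and each column 1 array, with colour for its log2 value relative to the region (red high, blue low). On both sides of the solid line the column of mutant replicate 2 is mostly red, with 32 of 38 genes above 0, and that of wild-type replicate 1 has 31 above 0 in cerebellum and 23 in hippocampus.

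**Figure D2:**
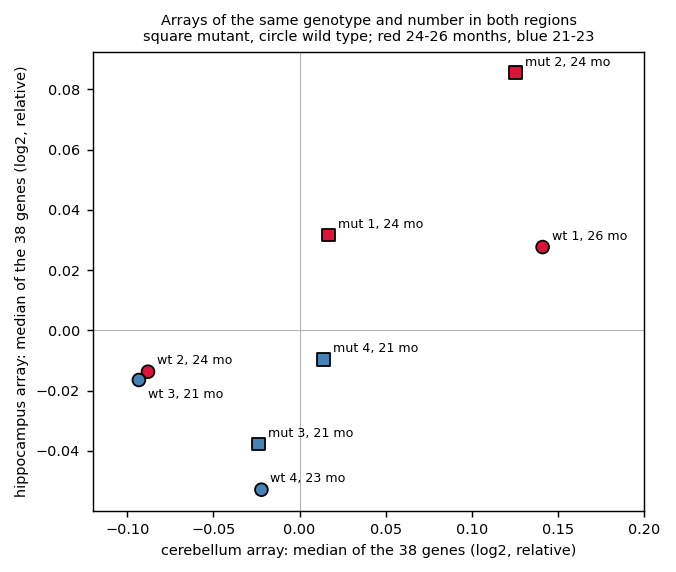
Each point is 1 genotype and replicate number, with the median log2 value of the 38 genes on its cerebellum array (horizontal) and hippocampus array (vertical). The 3 points at upper right are mutant replicates 1 and 2 and wild-type replicate 1, while the other 5 lie below 0 in hippocampus.

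Values of a gene in both regions were then set side by side. Over the 8 pairs of cerebellum and hippocampus arrays with the same genotype and number, the correlation of a gene's values was above 0 for 28 of 38 genes, with a median of 0.33, against 48.2% of all genes and a median of -0.018. Without wild-type replicate 1 it was above 0 for 25 of 38, with a median of 0.31 against -0.011. The labels do not say that such pairs come from 1 animal, the pairs share genotype and age, and this is a description only. Over all genes, deviations from the group means correlated between -0.17 and 0.17 within the 8 pairs.

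The 26-month wild-type sample carried the highest values of the guanylate-binding proteins, large GTPases that attack membranes around pathogens and answer strongly to interferon gamma. These genes were chosen after their values were seen. Gbp2 read 0.61 in cerebellum and 0.62 in hippocampus, where the other 7 arrays ranged from -0.31 to 0.30 and from -0.038 to 0.17. Gbp3 read 0.41 in cerebellum and 0.75 in hippocampus, with the others from -0.40 to 0.30 and from -0.20 to 0.11. Both genes were highest on that sample in each region. Wild-type replicate 1 also led for B2m, the light chain of class I molecules, at 0.30 in cerebellum and 0.51 in hippocampus. A list of 7 other guanylate-binding proteins and immunity-related GTPases averaged 0.41 and 0.25 on this sample, again the highest of 8 in each region. Its hippocampus array is the one with cerebellar markers, whose part in these values was not tested.

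Besides Gbp3, the widest ranges over the 16 arrays were those of Ifitm1, Ifit1 and Usp18, also chosen after their values were seen. Ifitm1, a relative of Ifitm3 at the cell surface, read 1.17 on mutant hippocampus replicate 1, where the other hippocampus arrays ranged from -0.17 to 0.30. In cerebellum it was highest on mutant replicate 2, at 0.85. These 2 arrays also had the highest means of 15 meningeal markers in their regions, 1.05 and 0.36, whose part was not tested. Ifit1 read from -0.45 (wild-type replicate 3) to 0.62 (wild-type replicate 1) in cerebellum and from -0.59 (mutant replicate 4) to 0.47 (mutant replicate 2) in hippocampus. Usp18 ran from -0.51 (wild-type replicate 2) to 0.32 (mutant replicate 1) in cerebellum and was highest on mutant replicates 1 and 2 in hippocampus, at 0.39 and 0.57. Their genotype differences were 0.13 ± 0.25 (SE), 0.13 ± 0.23 (SE) and 0.18 ± 0.16 (SE) in cerebellum and 0.26 ± 0.25 (SE), -0.0067 ± 0.23 (SE) and 0.22 ± 0.16 (SE) in hippocampus. These differences depended on single arrays. That of Ifitm1 was -0.088 without mutant cerebellum replicate 2 and -0.038 without mutant hippocampus replicate 1. That of Ifit1 was -0.0026 without wild-type cerebellum replicate 3, 0.35 without wild-type cerebellum replicate 1 and 0.18 without mutant hippocampus replicate 4. That of Usp18 was 0.056 without wild-type cerebellum replicate 2 and 0.096 without mutant hippocampus replicate 2.

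The genotypes were compared within each region. In cerebellum 0 of the 38 genes passed an adjusted p of 0.05 by limma, as did 0 of 18168 genes (0%), and the difference was above 0 for 28 of 38 against 53.6% of all genes. The median difference, mutant minus wild type, was 0.072, against 0.0074 over all genes. The standard error of a gene had a median of 0.088. At an unadjusted p under 0.05 stood 1 gene, Nmi, against 5.39% of all genes (3.15% higher and 2.24% lower), and no gene had groups that did not overlap, against 2.46% of all (1.44% higher). The median rested on a few arrays, being 0.019 when mutant replicate 2 was left out, 0.015 when wild-type replicate 3 was, 0.040 when wild-type replicate 2 was, and 0.13 when wild-type replicate 1 was. Without the latter array 5 genes stood at an unadjusted p under 0.05, all higher in mutants, against 4.93% of all genes higher, and 5 did not overlap, against 5.04% higher. Without mutant replicate 3 the first count was 3, all higher, against 4.45%. Without mutant replicates 2 and 4, the arrays with raised poly-A spike-in controls, the median was 0.0066, against 0.0053 over all genes, with 22 of 38 above 0 against 52.9%. Without the arrays whose choroid plexus markers stood apart it was 0.14, and with quantile normalization 0.036. With age in months as a covariate 8 genes stood at an unadjusted p under 0.05, all higher, where 5.15% of all genes were higher and 4.76% lower. Leaving out 1 array changed the sign of the difference for 17 of the 38 genes.

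Among the transcription factors and their partners, Nmi, which binds Ifi35, had the smallest p of the set in cerebellum. It read 0.20, 0.17, -0.012 and 0.30 on mutant arrays 1 to 4 and 0.012, -0.33, -0.31 and -0.24 on wild-type arrays 1 to 4. Mutant replicate 3 lay just below wild-type replicate 1, and the other mutant arrays lay above every wild-type array. The difference was 0.38 ± 0.080 (SE), with a 95% interval of 0.21 to 0.55 and an adjusted p of 0.88. In hippocampus the same gene differed by 0.033 ± 0.080 (SE), with an interval of -0.14 to 0.20. The other factors in cerebellum ranged from -0.12 for Stat2 to 0.15 for Ifi35, the partner of Nmi, whose difference was 0.072 without mutant replicate 2 and -0.0049 without mutant replicates 2 and 4.

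Ifi27, a small hydrophobic protein strongly induced by type I interferon, had the next smallest p in cerebellum. It read 0.29, 0.24, 0.017 and -0.12 on the mutant arrays and 0.18, -0.21, -0.38 and -0.017 on the wild-type arrays, so the groups overlapped. Its difference was 0.21 ± 0.11 (SE) with an adjusted p of 0.88, and 0.12 when wild-type replicate 3 was left out; leaving out both arrays with choroid plexus markers apart gave 0.39. Parp9, which with Dtx3l forms a ubiquitin ligase that strengthens interferon signalling, read -0.039, 0.052, 0.13 and 0.087 in mutants and -0.14, 0.039, -0.28 and -0.041 in wild type. Here too the groups overlapped, and the difference of 0.16 ± 0.087 (SE) had an adjusted p of 0.88 and became 0.11 without wild-type replicate 3. Zbp1, a sensor of Z-form nucleic acid that starts necroptosis, was the gene of lowest p with a negative difference. It read 0.0025, 0.017, -0.041 and -0.094 in mutants and 0.11, 0.11, -0.044 and 0.14 in wild type, a difference of -0.11 ± 0.059 (SE) with an adjusted p of 0.88, and its pair of probe sets gave differences of -0.21 and -0.010.

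By role, differences in cerebellum were above 0 for 12 of 14 with a median difference of 0.087 among antiviral effectors. They were above 0 for 4 of 6 with a median difference of 0.099 among sensors, and for 2 of 5 with a median difference of -0.011 among transcription factors. The conjugation and ADP-ribosylation genes had 4 of 5 with a median difference of 0.039, the guanylate-binding proteins 3 of 3 with a median difference of 0.077, and class I processing 3 of 5 with a median difference of 0.016. None of these members beyond Nmi stood at an unadjusted p under 0.05. The guanylate-binding proteins did not hold their direction, with Gbp2 at -0.10 and Gbp3 at -0.0065 without wild-type replicate 2.

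Marker lists of other cells were compared between genotypes in the same way, and none of their genes passed the adjusted threshold. The mean of 13 choroid plexus markers differed by -0.39, mutant minus wild type (-1.15 to 0.082 in mutants and -0.34 to 0.59 in wild type), with 12 of 13 below 0. The mean of 16 microglia markers differed by 0.11 (-0.085 to 0.31 in mutants and -0.16 to 0.11 in wild type), with 14 of 16 above 0 and 2 higher at an unadjusted p under 0.05 (against 3.15% of all genes higher), and that of 7 border macrophage markers by 0.13, with 7 of 7 above 0. The mean of 6 blood cell markers differed by -0.20 (-0.079 to -0.023 in mutants and 0.017 to 0.23 in wild type), with 2 lower at an unadjusted p under 0.05 (against 2.24% lower) and array means that did not overlap, although the median over these genes was 0.0032. Their part in the differences of the 38 genes was not tested.

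In hippocampus 0 of 38 genes passed the adjusted threshold, as did 0 of 18168 (0%). The median difference was 0.051 against 0.020 over all genes, with 26 of 38 above 0 against 58.9% of all. At an unadjusted p under 0.05 stood Tap2, Ifi27 and Oasl2, all higher in mutants, 3 of 38 against 8.03% of all genes (5.28% higher). Mutant and wild-type arrays did not overlap for Tap2 and Ifi27, higher in mutants, and for Parp14, lower, again 3 of 38 against 4.76% of all genes (3.24% higher). The median depended on single arrays. It ranged from 0.012 with mutant replicate 2 left out, 0.023 with wild-type replicate 2 left out and 0.025 with wild-type replicate 4 left out, to 0.082 with mutant replicate 3 left out and 0.085 with wild-type replicate 1 left out. Without the 3 marker-raised arrays it was 0.10, 1 gene, higher, stood at an unadjusted p under 0.05 against 2.88% of all genes higher, and 7 genes higher and 1 lower had groups that did not overlap, where with so few arrays 12% and 8.76% of all genes did. Without mutant replicate 4 groups did not overlap for 4 genes higher and 1 lower, against 4.56% and 2.43% of all genes. With age in months as a covariate the median was 0.077 and 5 genes, all higher, stood at an unadjusted p under 0.05, against 5.1% of all genes higher. Leaving out 1 array changed the sign of the difference for 23 of the 38 genes.

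In hippocampus no marker gene passed the adjusted threshold either, while 5.28% of all genes were higher and 2.75% lower at an unadjusted p under 0.05. The mean of 14 markers of ependyma, the ciliated lining of the ventricles, differed by 0.42, mutant minus wild type (-0.032 to 0.50 in mutants and -0.29 to -0.050 in wild type). Its array means did not overlap, 13 of 14 genes were above 0 and 10 were higher at an unadjusted p under 0.05. The mean of 15 meningeal markers differed by 0.33 (-0.11 to 1.05 in mutants and -0.24 to -0.0013 in wild type), with 15 of 15 above 0 and 4 higher at an unadjusted p under 0.05, and was highest on mutant replicate 1. Choroid plexus markers differed by 0.26 (-0.33 to 1.78 in mutants and -0.35 to 0.70 in wild type), with 12 of 13 above 0. The 6 blood cell markers differed by -0.29 (-0.18 to -0.051 in mutants and 0.037 to 0.47 in wild type), with 2 lower and 1 higher at an unadjusted p under 0.05 and array means that did not overlap. Of 10 markers of hippocampal neurons 4 were lower at that threshold, with a mean difference of -0.088 (-0.16 to 0.049 in mutants and -0.58 to 0.48 in wild type). The 16 microglia markers differed by -0.040 (-0.070 to 0.16 in mutants and -0.11 to 0.20 in wild type), with 7 above and 9 below 0, unlike in cerebellum. Their genotype effect, hippocampus minus cerebellum, was below 0 for 14 of 16. Astrocyte markers differed by -0.032, with 5 of 14 above 0. Endothelial markers differed by 0.063, with 8 of 11 above 0, and border macrophage markers by 0.095, with 5 of 7 above 0. The part of these cells in the differences of the 38 genes was not tested.

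Tap2, a subunit of the transporter that carries peptides into the endoplasmic reticulum for class I loading, read 0.048, 0.069, 0.018 and 0.13 on mutant and -0.14, -0.096, -0.15 and -0.018 on wild-type arrays 1 to 4. Every mutant array was above every wild-type array, and the difference was 0.17 ± 0.061 (SE) with an adjusted p of 0.51. In cerebellum the difference for Tap2 had the other sign, -0.092 ± 0.061 (SE), and the difference between regions was 0.26 ± 0.086 (SE) with an adjusted p of 0.87. The cerebellum value was -0.045 without mutant replicate 4. Its partner Tap1 differed by 0.029 in hippocampus and by -0.0020 without wild-type replicate 2.

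Ifi27 read 0.16, 0.071, 0.081 and 0.26 in mutants and -0.16, -0.054, -0.16 and -0.15 in wild type, again with no overlap. The difference of 0.27 ± 0.11 (SE) had an adjusted p of 0.54, and it was close to the 0.21 of cerebellum. Oasl2, a relative of the oligoadenylate synthetases that respond to double-stranded RNA, read 0.38, 0.35, 0.23 and -0.11 in mutants and 0.063, -0.063, -0.070 and -0.074 in wild type. Mutant replicates 1, 2 and 3 lay above the wild type and mutant replicate 4 below it, for a difference of 0.25 ± 0.11 (SE) and an adjusted p of 0.59. Xaf1, a promoter of cell death that binds the apoptosis inhibitor Xiap, read 0.21, 0.0064, -0.044 and 0.29 in mutants and -0.0064, 0.048, -0.067 and -0.12 in wild type. Its difference of 0.15 ± 0.077 (SE) had an adjusted p of 0.62 and was 0.092 without mutant replicate 4, the array with the highest choroid plexus markers. It was 0.026 without all 3 marker-raised arrays.

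Parp14, an ADP-ribosyltransferase of macrophages and B cells, read -0.016, -0.059, -0.028 and -0.15 in mutants and 0.066, -0.013, 0.073 and 0.018 in wild type. The highest mutant value lay just below the lowest wild-type value. The difference was -0.098 ± 0.057 (SE) with an adjusted p of 0.65, and its pair of probe sets gave differences of -0.19 and -0.0087. By role, antiviral effectors were above 0 for 12 of 14 with a median difference of 0.089, sensors for 4 of 6 with a median difference of 0.040, and transcription factors for 4 of 5 with a median difference of 0.072. All 3 guanylate-binding proteins were below 0, with a median of -0.11, and wild-type replicate 1 held their highest values, as described above. Without that array all 3 were above 0, with Gbp2 at 0.050, Gbp3 at 0.075 and Gbp7 at 0.026.

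The genotype effect was then set against itself between regions, hippocampus minus cerebellum. Of the 38 genes 0 passed, as did 0 of 18168 (0%), and signs were even, with 19 above and 19 below 0 where 54.9% of all genes were above 0, and a median of 0.00091 against 0.014. Nmi (-0.35 ± 0.11 (SE), adjusted p 0.87) and Tap2 (given above) were the 2 of 38 at an unadjusted p under 0.05, against 5.35% of all genes (3.07% higher and 2.28% lower). Parp14 differed by -0.14 ± 0.080 (SE) with an adjusted p of 0.87, from 0.039 in cerebellum and -0.098 in hippocampus. Its pair of probe sets gave -0.27 and -0.0069. For B2m, whose promoter above holds an ISRE core, the effect was 0.12 in cerebellum and -0.093 in hippocampus. Both depended on wild-type replicate 1, without which they were 0.24 and 0.045. That array made the cerebellum effect smaller and gave the hippocampus effect its negative sign. The cerebellum effect was 0.064 without wild-type replicate 2, and the hippocampus effect -0.018 without mutant replicate 3. The difference of -0.22 ± 0.19 (SE) had an adjusted p of 0.89, and was -0.33 without wild-type cerebellum replicate 1, -0.080 without wild-type hippocampus replicate 1 and -0.14 without mutant hippocampus replicate 3. The median over the genes lay between -0.064 and 0.039 as single arrays were left out, the ends being reached without wild-type cerebellum replicate 1 and without wild-type hippocampus replicate 1.

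The second comparison set the older against the younger class with genotype in the model. Because the class is the same as the replicate numbers 1 and 2 against 3 and 4, age cannot be told apart from anything else those numbers share. In cerebellum 0 of 38 genes passed the adjusted threshold, as did 0 of 18168 (0%). The difference, older minus younger, was above 0 for 35 of 38 genes, with a median of 0.11, where 52.6% of all genes were above 0 and their median was 0.0050. It was 0.10 within the mutant arrays and 0.11 within the wild-type arrays. Single genes stood out little, with 2 of 38, Ddx60 and Ifi27, at an unadjusted p under 0.05 against 4.21% of all genes (2.39% higher and 1.82% lower), and none with groups that did not overlap, against 2.26% (1.49% higher). Wild-type replicate 2 was the older array with low values: without it 11 genes, all higher in older arrays, stood at an unadjusted p under 0.05 against 3.12% of all genes higher, 9 did not overlap against 4.14% higher, and the median was 0.15. The first count, all higher, was 5 without mutant replicate 1 (against 3.01% of all genes higher), 4 without mutant replicate 4 (1.87%) and 4 without wild-type replicate 4 (3.51%). It was 1 when mutant replicate 3 (3.65%), wild-type replicate 1 (1.82%) or wild-type replicate 3 (1.5%) was left out. With wild-type replicate 1 left out the median was 0.070, and without both arrays whose choroid plexus markers stood apart it was 0.058. With age in months as a linear term 11 genes stood at an unadjusted p under 0.05, all higher, where 4.94% of all genes were higher and 4.55% lower. Leaving out 1 array changed the sign for 13 of the 38 genes.

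Ddx60, a helicase that supports RNA sensing by RIG-I and has 2 ISRE cores before its start, read 0.29, 0.11, -0.032 and 0.039 on older arrays (mutant 1 and 2, then wild-type 1 and 2) and -0.13, 0.036, -0.15 and -0.058 on younger ones (mutant 3 and 4, then wild-type 3 and 4). Mutant replicate 1 was highest and the groups overlapped, with a difference of 0.18 ± 0.062 (SE) and an adjusted p of 0.999. Ifi27 read 0.29, 0.24, 0.18 and -0.21 on older and 0.017, -0.12, -0.38 and -0.017 on younger arrays in the same order, a difference of 0.25 ± 0.091 (SE) with an adjusted p of 0.999, and 0.12 without the arrays with choroid plexus markers apart. Psmb8, a catalytic subunit of the immunoproteasome, which cuts peptides for class I molecules, read -0.023, 0.22, 0.33 and -0.065 on older and -0.068, -0.042, -0.11 and -0.016 on younger arrays in the same order. Its high older arrays were mutant replicate 2 and wild-type replicate 1. The difference of 0.17 ± 0.082 (SE) had an adjusted p of 0.999 and was 0.091 without wild-type replicate 1. Ifi35 read 0.013, 0.34, 0.15 and -0.044 on older and -0.084, 0.20, -0.14 and -0.092 on younger arrays in the same order, a difference of 0.15 ± 0.077 (SE) with an adjusted p of 0.999, and 0.086 without mutant replicate 2 and 0.095 without mutant replicate 3.

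In hippocampus several antiviral genes, among them Ifitm3 and Ifit3, and B2m were higher on every older array than on any younger one, by narrow margins given below. Whether the age difference itself differs between regions was not tested. Again 0 of 38 genes passed the adjusted threshold, as did 0 of 18168 (0%), and the smallest adjusted p of the set was 0.46. At an unadjusted p under 0.05 stood 9 of 38 genes, all higher in older arrays, against 6.55% of all genes (3.39% higher). For 7 of 38 genes every older array lay above every younger one, against 3.5% of all genes in either direction (1.78% higher): Irf9, Eif2ak2, Ifit3, Ifitm3, Rtp4, Parp9 and B2m. Their lowest older and highest younger values were close, at 0.0035 and -0.0035 for Ifitm3, 0.011 and -0.011 for Ifit3, and 0.012 and -0.012 for Irf9. They were 0.014 and -0.014 for Parp9, -0.0012 and -0.016 for B2m, -0.011 and -0.022 for Rtp4, and 0.037 and -0.0032 for Eif2ak2. The median difference was 0.097, 0.089 within mutants and 0.086 within wild type, against -0.0094 over all genes, and 28 of 38 were above 0 against 45.3% of all. Without wild-type replicate 1, which carries cerebellar markers, the median was 0.055, 8 genes stood at an unadjusted p under 0.05, all higher, against 2.36% of all genes higher, and 8 did not overlap (2.8% of all genes higher). Without all 3 marker-raised arrays the median was 0.054, 5 genes, all higher, stood at an unadjusted p under 0.05 against 1.9% higher, and 14 did not overlap in that direction and 1 in the other, where 9.57% and 8.5% of all genes did. Without mutant replicate 4 alone 5 genes stood at an unadjusted p under 0.05, all higher, against 3.57% higher, and 11 did not overlap (3.5% of all genes higher). Leaving out 1 array changed the sign for 15 of the 38 genes. In both age comparisons 26 of 38 genes were above 0, against 24.3% of all genes, and in both genotype comparisons 21 of 38, against 32.9%; the arrays of each region are separate, but may come from the same animals.

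**Figure D3:**
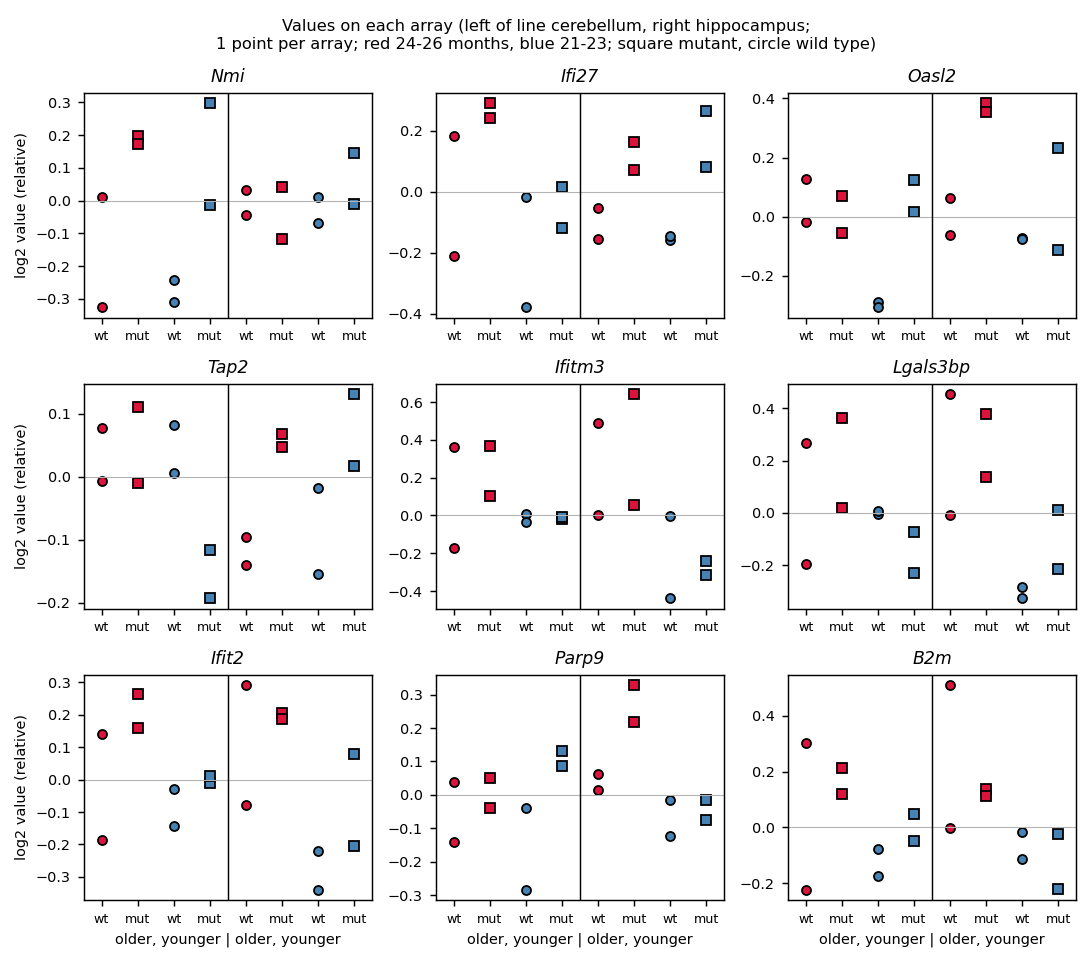
Each panel gives 1 gene's log2 value on each of the 16 arrays, relative to its region, with cerebellum left and hippocampus right of the line, older arrays before younger and wild type before mutant. In hippocampus the older points of Ifitm3, Parp9 and B2m lie above all younger points, and the mutant points of Ifi27 and Tap2 lie above all wild-type points.

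Ifitm3, a membrane protein that blocks the entry of viruses by fusion and whose window holds 2 ISRE cores, had the smallest p. It read 0.64, 0.058, 0.49 and 0.0035 on older arrays (mutant 1 and 2, then wild-type 1 and 2) and -0.24, -0.31, -0.0035 and -0.44 on younger ones (mutant 3 and 4, then wild-type 3 and 4). The difference was 0.55 ± 0.15 (SE) with a 95% interval of 0.23 to 0.86 and an adjusted p of 0.46. The highest arrays were mutant replicate 1 and wild-type replicate 1, those with meningeal and cerebellar markers, and without the 3 marker-raised arrays the difference was 0.26. In cerebellum the same gene differed by 0.18 ± 0.15 (SE), and by 0.086 without wild-type replicate 1.

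Lgals3bp, a secreted glycoprotein that binds galectins, read 0.38, 0.14, 0.45 and -0.010 on older and -0.22, 0.010, -0.28 and -0.33 on younger arrays in the same order. Wild-type replicate 2 lay just below mutant replicate 4, and otherwise older arrays were above younger ones. The difference was 0.44 ± 0.12 (SE) with an adjusted p of 0.49. Ifit2, which binds viral RNA and limits its translation, read 0.21, 0.19, -0.078 and 0.29 on older and -0.20, 0.078, -0.22 and -0.34 on younger arrays in the same order. Wild-type replicate 1 was the low older array. The difference of 0.32 ± 0.092 (SE), with an adjusted p of 0.51, became 0.49 without the 3 marker-raised arrays. With age in months as a linear term the slope was 0.20 per 3 months, a measure unlike the class difference. Parp9 read 0.22, 0.33, 0.014 and 0.063 on older and -0.015, -0.077, -0.12 and -0.014 on younger arrays in the same order, with no overlap, a difference of 0.21 ± 0.074 (SE) and an adjusted p of 0.64, and 0.11 within the wild-type arrays. Its partner Dtx3l differed by 0.10, and by 0.030 without mutant replicate 2.

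Of the others with groups apart, B2m read 0.14, 0.11, 0.51 and -0.0012 on older and -0.22, -0.022, -0.016 and -0.11 on younger arrays in the same order, a difference of 0.28 ± 0.11 (SE) with an adjusted p of 0.71. Wild-type replicate 1 was far above the rest, and without it the difference was 0.17. Eif2ak2, the kinase that halts translation on double-stranded RNA, differed by 0.18 ± 0.074 (SE). Ifit3, a partner of Ifit1 and Ifit2, differed by 0.30 ± 0.13 (SE), and by 0.17 without mutant replicate 1, one of the marker-raised arrays. Rtp4, a chaperone of membrane receptors, differed by 0.19 ± 0.087 (SE). Irf9, the DNA-binding member of the interferon-activated complex, differed by 0.14 ± 0.080 (SE), and by 0.093 without wild-type replicate 4. Trim30a, a tripartite-motif protein of the mouse, differed by 0.17 ± 0.077 (SE) with overlapping groups, and by 0.11 without wild-type replicate 1. The adjusted p of these 6 genes ranged from 0.71 to 0.78. By role, antiviral effectors were above 0 for 10 of 14 with a median difference of 0.18, the conjugation and ADP-ribosylation genes for 5 of 5 with a median difference of 0.10, and sensors for 4 of 6 with a median difference of 0.10. In class I processing, Tap1, Tap2, Psmb9 and Psmb8 were at -0.022, -0.024, -0.039 and 0.045, and the antiviral GTPases Mx1 and Mx2 at -0.074 and -0.041. Of these 6 values, those of Tap1, Tap2, Psmb9 and Mx2 changed sign when single arrays were left out.

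**Figure D4:**
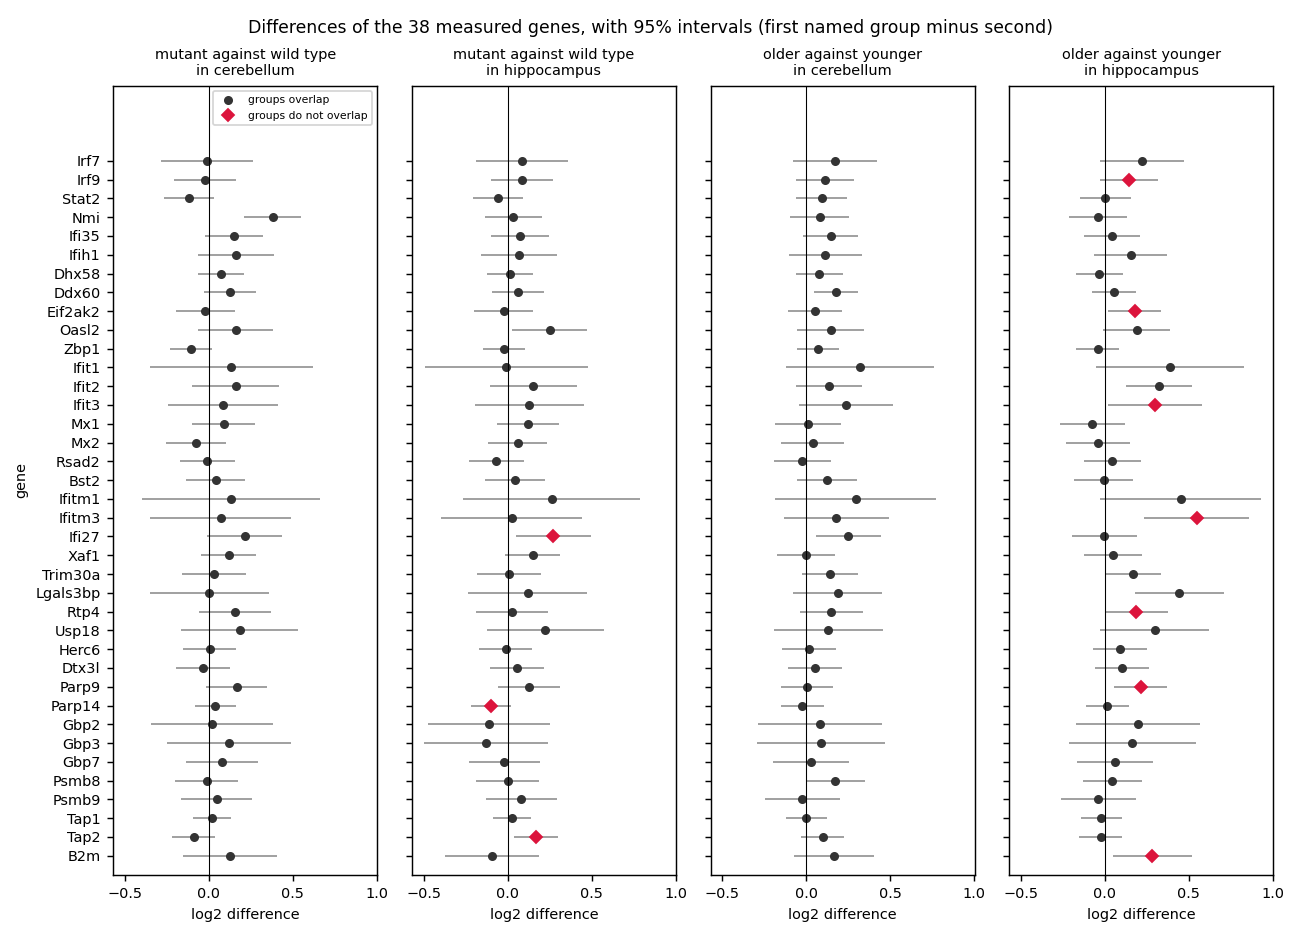
Points are log2 differences of the 38 genes in 4 comparisons (first named group minus second) with 95% intervals as lines, and red diamonds mark genes whose groups do not overlap. In the panel for age in hippocampus 7 diamonds lie to the right of 0, and in that for age in cerebellum 35 of 38 points lie right of 0 with no diamond.

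Markers of microglia and astrocytes, which take part in this response, had higher means on older arrays, and so did those of several other cell types. Of 17 microglia markers 16 were measured, and their mean differed by 0.24 in cerebellum (-0.016 to 0.31 in older and -0.16 to -0.082 in younger arrays) and by 0.18 in hippocampus (-0.056 to 0.20 in older and -0.11 to -0.069 in younger arrays). They were above 0 for 15 and 14 of 16 genes, with 8 and 5 at an unadjusted p under 0.05, all higher, against 2.39% and 3.39% of all genes higher. The 14 astrocyte markers differed by 0.095 in cerebellum (0.020 to 0.069 in older and -0.12 to 0.048 in younger arrays) and by 0.26 in hippocampus (0.046 to 0.36 in older and -0.19 to 0.0046 in younger arrays). The microglia means of older and younger arrays did not overlap in either region, nor did the astrocyte means in hippocampus. Meningeal markers differed by 0.26 in hippocampus (-0.24 to 1.05 in older and -0.11 to -0.0013 in younger arrays). The largest differences in hippocampus were 0.72 for cerebellar granule neurons and 0.46 for Purkinje cells, both highest on wild-type replicate 1 (2.23 and 1.51). Border macrophage markers differed by 0.13 in cerebellum and 0.22 in hippocampus, with 7 of 7 above 0 in each. Choroid plexus markers differed by 0.29 in cerebellum and -0.21 in hippocampus, and hippocampal neuron markers by -0.24 in hippocampus. Ependymal markers differed by 0.18 in cerebellum (-0.14 to 0.23 in older and -0.30 to -0.00042 in younger arrays) and -0.21 in hippocampus (-0.29 to 0.22 in older and -0.17 to 0.50 in younger arrays). No marker gene of these lists passed the adjusted threshold, and the part of these cells in the age differences was not tested.

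The pathway upstream of the set gave no call. No gene of the 8 pathway lists below passed the adjusted threshold in any of the 5 comparisons. The interferons themselves, 6 of 10 measured, had a median of 0.021 in cerebellum and 0.13 in hippocampus for mutant minus wild type, with none at an unadjusted p under 0.05. Receptors, kinases and factors, 16 of 17 measured, had medians of -0.022 and -0.037, also with none. Genes of nucleic acid sensing and clearance, 20 of 22 measured, had medians of 0.034 and 0.043. At an unadjusted p under 0.05, 1 was higher in cerebellum, against 3.15% of all genes. In hippocampus 1 was higher and 1 lower, against 5.28% and 2.75%. The higher gene was Rnaseh2b in both regions, at 0.23 ± 0.082 (SE) and 0.19 ± 0.082 (SE), with adjusted p of 0.88 and 0.60. Tbk1, the kinase downstream of the sensors, read -0.059, -0.21, 0.0067 and -0.26 in mutant and 0.19, 0.054, 0.13 and 0.012 in wild-type hippocampus. Its difference was -0.22 ± 0.072 (SE) with an adjusted p of 0.49. Cgas, the sensor of cytosolic DNA, differed by 0.031 in cerebellum and 0.048 in hippocampus, and Sting1 by -0.029 and -0.032; these 2 were named for their role. In cerebellum the class I list (16 of 24 measured) held 0 higher and 1 lower at an unadjusted p under 0.05, against 3.15% and 2.24% of all genes. Its median was -0.0051, and the lower gene was Tapbp, which helps load class I molecules, at -0.18 ± 0.077 (SE). In hippocampus it held 3 higher and 0 lower at an unadjusted p under 0.05, and a median of 0.059, against 5.28% of all genes higher, led by H2-T3, a non-classical class I molecule, at 0.23 ± 0.064 (SE) with an adjusted p of 0.43.

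Of other genes downstream of interferon, 30 of 42 interferon-stimulated genes and 7 of 10 class II genes had differences above 0 with age in hippocampus. In cerebellum 30 and 8 did. Of all genes 45.3% were above 0 in hippocampus and 52.6% in cerebellum. Of 51 other interferon-stimulated genes 42 were measured, with a median of 0.056 in hippocampus. There 9 were higher and 1 lower at an unadjusted p under 0.05, against 3.39% and 3.16% of all genes. Ifitm2, a relative of Ifitm3, read 0.70, -0.0040, 0.31 and 0.32 on older and -0.24, -0.10, 0.0040 and -0.37 on younger arrays in the same order, a difference of 0.51 ± 0.13 (SE) with an adjusted p of 0.44. Serping1, the inhibitor of complement C1, differed by 0.58 ± 0.19 (SE) with an adjusted p of 0.6, and by 0.30 without mutant replicate 1, the array with meningeal markers. In cerebellum the same list had 0 higher and 0 lower at an unadjusted p under 0.05, and a median of 0.036.

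Of the class II genes, 10 of 11 measured, there were 5 higher and 0 lower at an unadjusted p under 0.05, and a median of 0.23 in hippocampus, and 1 higher and 0 lower at an unadjusted p under 0.05, and a median of 0.067 in cerebellum, where the shares of all genes were 3.39% and 2.39% higher. Ctss, the protease that frees class II molecules from their invariant chain and is abundant in microglia, had the smallest p of the pathway lists in both regions. It read 0.27, 0.31, 0.13 and 0.087 on older and -0.087, -0.15, -0.23 and -0.24 on younger arrays in the same order in cerebellum. In hippocampus it read 0.025, 0.23, 0.43 and 0.24 on older and -0.025, -0.17, -0.14 and -0.13 on younger arrays in the same order. The groups did not overlap in either region, and the differences were 0.38 ± 0.067 (SE) (adjusted p 0.51) and 0.35 ± 0.067 (SE) (adjusted p 0.12). Cd74, the invariant chain, differed by 0.62 ± 0.15 (SE) in hippocampus with an adjusted p of 0.31.

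The classical class I genes H2-K1 and H2-D1 differed with age in hippocampus by 0.36 ± 0.10 (SE) and 0.24 ± 0.074 (SE), with adjusted p of 0.51 and 0.59. Both were highest on wild-type replicate 1, and without it the differences were 0.23 and 0.16. These genes share sequence with other class I genes, so their probe sets may not tell them apart. Their list of 16 class I genes held 3 higher and 1 lower in hippocampus at an unadjusted p under 0.05, against 3.39% and 3.16% of all genes. Its median there was 0.052, with 10 of 16 above 0. In cerebellum it held 1 higher and 2 lower at that threshold, against 2.39% and 1.82% of all genes, with a median of -0.0097. The smallest p of the list in cerebellum was that of Calr, a chaperone of class I folding, at -0.33 ± 0.098 (SE) with an adjusted p of 0.999. Irf8, a factor of microglia, differed in hippocampus by 0.28 ± 0.093 (SE) with an adjusted p of 0.6, 0.057 within mutants and 0.51 within wild type. Socs3, a feedback inhibitor of cytokine receptors, read 0.23, 0.075, 2.25 and 0.45 on older and -0.12, -0.19, -0.19 and -0.18 on younger arrays in the same order. Its difference of 0.92 ± 0.29 (SE) (adjusted p 0.6) was 0.44 without wild-type replicate 1, its highest array. The interferon-induced chemokines, 7 of 7 measured, had 1 higher and 0 lower at an unadjusted p under 0.05 in each region. Their median was 0.063 in hippocampus and 0.031 in cerebellum. The 7 measured of 12 immunity-related GTPases and other guanylate-binding proteins had 0 higher and 0 lower in hippocampus, and a median of 0.12. In cerebellum they had 2 higher and 0 lower, and a median of 0.050. These were Irgm1 at 0.30 ± 0.13 (SE) and Gbp6 at 0.26 ± 0.11 (SE), both with an adjusted p of 0.999. Of all genes 3.39% were higher in hippocampus and 2.39% in cerebellum.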

How the data were processed

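RNA of 16 arrays was measured on an Affymetrix mouse array. Total RNA was extracted with Trizol and biotinylated cRNA was prepared from 5 ug of it, per the labels' protocols, and the submitters' processing notes list GCOS 4.0. The deposited values were read as log2 values. They lie on a log scale whose base is not stated, each probe set having a median of 0 over the arrays of a region; how they were summarised and normalized is not given in the sources used here. Arrays carry no counts, so their number limits the precision. Of 45101 probe sets, 64 controls and 133 with an empty value were dropped, leaving 44904; 34843 of these name a single gene (931 name several), giving 18168 genes as means over probe sets. Groups came from sample titles and ages from the age label.

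Differences were fitted over all genes with limma 3.58.1 in R 4.3.3: 4 group means on 16 arrays for genotype (12 residual degrees of freedom), and region, genotype and age class within region for age (10). P-values were adjusted by the Benjamini-Hochberg method over 18168 genes, with a threshold of 0.05. The fits were tested on simulated data. The genes, lists and comparisons were chosen with earlier results of these data known. Genes described by array were those past the threshold or, with fewer than 4, the 4 of smallest p in each comparison, and those with non-overlapping genotype groups. Other arrays and settings tried are given at the end. Replicate numbers did not pair samples: deviations of same-numbered mutant and wild-type arrays correlated between -0.19 and 0.23. P-values reflect only how far these samples spread, which may be technical.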

Additional observations from a re-analysis of the deposited data

Results flagged for a closer look

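In all 64 groups of 4 arrays were tested, which included those of the 15 named genes. Of these groups 4, all of named genes, held an array far from the other 3, where chance gives about 1 in 20. In wild-type hippocampus Ifi27 read -0.054 on replicate 2, with the others between -0.16 and -0.15. Zbp1 read 0.071 on replicate 3 of the same group, with the others between -0.014 and -0.0043. Oasl2 read 0.063 on replicate 1 of that group, the array with cerebellar markers, with the others between -0.074 and -0.063. In mutant cerebellum Psmb8 read 0.22 on replicate 2, with the others between -0.068 and -0.023.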

How the results depend on the processing

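Genes called among the 38 stayed at 0 in all 5 comparisons under every alternative run. The 4 or 5 genes named for a comparison, by smallest p or groups apart, kept their sign in it wherever an alternative measured them. Among all 38 genes, leaving out 1 array changed the sign for 17 in cerebellum and 23 in hippocampus for genotype, 20 for the difference between regions, and 13 and 15 for age. Over all genes the count called was 0 in the reported fits and reached 8 for age in cerebellum and 13 for age in hippocampus with quantile normalization, 20 for age in hippocampus with age in months as a linear term, and 7 for genotype in hippocampus without wild-type hippocampus replicate 2; for the difference between regions it reached 1. With quantile normalization Ctss in cerebellum (0.40) and Socs3 in hippocampus (0.59) passed the threshold for age. Without the cerebellum arrays with choroid plexus markers apart (chosen after seeing the data, as were the other sets of arrays left out for their markers or spike-ins), the median difference between regions was -0.079. With probe sets fitted singly the median was 0.047 for genotype in cerebellum, 0.034 for genotype in hippocampus and 0.058 for age in hippocampus, and without the suffixed probe sets 0.045 for genotype in cerebellum. Leaving out single arrays, the median difference ranged from 0.015 to 0.13 for genotype in cerebellum, 0.012 to 0.085 for genotype in hippocampus, -0.064 to 0.039 between regions, 0.070 to 0.15 for age in cerebellum and 0.055 to 0.13 for age in hippocampus. A replicate block cannot change a genotype difference here, because each number occurs once in each genotype of a region. The medians with it were therefore again 0.072 in cerebellum and 0.051 in hippocampus. It changes only the standard errors, and with it 0 genes of the set were called, while the numbers did not pair the samples. Without probe sets that may match several transcripts (suffixes x, s and a), 11 genes were lost and have no value in that setting. Of the 27 left, 0 were higher and 1 lower for genotype in cerebellum at an unadjusted p under 0.05, against 2.8% and 2.46% of all genes. In hippocampus 0 were higher and 0 lower, against 5.14% and 2.77%. For age 1 was higher in cerebellum (2.42% of all genes) and 6 in hippocampus (3.21%), with 0 lower in each. Of the 18 genes with several probe sets, these differed in sign for 12 in the genotype comparison in cerebellum, 11 in hippocampus, and 7 and 8 for age. The median 95% interval reached 0.19 to each side for genotype, so differences well under that could not be told from 0.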
